A study of Mus musculus with 30 samples.

Results

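The genes described here are 40 markers of liver macrophages, lymphocytes, neutrophils and inflammatory signals, listed by name. A gene counted as measured where a probe set of the array carried its symbol and no other, and of several such probe sets the brightest on average over the 30 arrays stood for the gene. In this way 38 of the 40 genes were measured, of 22180 genes in all. Spp1 was not analysed here, and Cd74 shares its only probe set with the microRNA gene Mir5107. The 38 genes were grouped by cell class: 11 genes of Kupffer cells and resident macrophages, 8 of recruited and lipid-associated macrophages, 2 of antigen presentation, 8 of lymphocytes and natural killer (NK) cells, 2 of neutrophils, and 7 cytokines, chemokines and sensors.

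Liver RNA came from male C57Bl/6NCr offspring of dams on 40% caloric restriction in late gestation (undernourished in utero, UN) or of dams fed freely (normally nourished, NN), and each animal gave 1 array. All pups were reared by NN foster dams. Cohort 1 was sampled at 9 weeks on regular chow (UN-9w and NN-9w, n = 3 each) and cohort 2 at 17 weeks after 8 weeks of high-fat diet (HFD; UN-17w and NN-17w, n = 4 each). Cohort 3 was sampled at 22 weeks after 13 weeks of HFD, the last 5 with the bile acid tauroursodeoxycholic acid (TUDCA, given by oral gavage) or vehicle (UN-TU, UN-Veh, NN-TU and NN-Veh, n = 4 each). The cohorts are separate animals, so that age, diet, vehicle treatment and cohort cannot be told apart between them, and the litter of each animal and the time of day of sampling were not given in the sources used here.

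Kupffer cells are the macrophages that line the liver sinusoids. They clear particles, dying cells and bacterial products from portal blood through scavenger and complement receptors, and in the mouse those of embryonic origin carry Timd4. When the liver stores fat, monocytes that carry the chemokine receptor Ccr2 can enter and become macrophages, some of which take on a lipid-handling state marked by Trem2, Gpnmb and Cd9. T cells, NK cells and B cells are also found in normal liver, and Cxcl9, Cxcl10 and Ccl5 are chemokines that attract T and NK cells.

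The promoters of 5 members are shown because they belong to genes whose levels the results turn on (Cd68, Trem2 and Lyz1), to the neighbouring lysozyme gene (Lyz2), and to the chemokine promoter that held every motif searched (Cxcl10). Each sequence is the 250 bases before the RefSeq gene start on the GRCm38.p6 build, read 5′ to 3′ on the gene's strand, and capitals mark the motif matches.
Cd68, chr11:69666171-69666420, minus strand: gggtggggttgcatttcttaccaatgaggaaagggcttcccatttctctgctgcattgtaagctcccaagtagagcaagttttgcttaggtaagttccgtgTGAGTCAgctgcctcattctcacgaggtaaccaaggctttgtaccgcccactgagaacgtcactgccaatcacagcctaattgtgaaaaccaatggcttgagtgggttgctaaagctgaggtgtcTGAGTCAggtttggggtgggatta
Trem2, chr17:48346151-48346400, plus strand: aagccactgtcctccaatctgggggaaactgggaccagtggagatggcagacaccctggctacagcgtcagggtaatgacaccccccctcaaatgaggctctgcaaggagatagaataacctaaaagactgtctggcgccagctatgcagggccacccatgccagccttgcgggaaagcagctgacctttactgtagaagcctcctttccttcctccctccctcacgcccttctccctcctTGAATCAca
Lyz1, chr10:117292869-117293118, minus strand: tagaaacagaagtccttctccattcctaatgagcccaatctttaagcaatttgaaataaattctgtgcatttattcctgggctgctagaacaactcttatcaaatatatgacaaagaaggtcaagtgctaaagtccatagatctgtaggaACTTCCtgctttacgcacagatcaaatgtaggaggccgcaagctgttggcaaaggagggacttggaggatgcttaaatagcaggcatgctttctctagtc
Lyz2, chr10:117282273-117282522, minus strand: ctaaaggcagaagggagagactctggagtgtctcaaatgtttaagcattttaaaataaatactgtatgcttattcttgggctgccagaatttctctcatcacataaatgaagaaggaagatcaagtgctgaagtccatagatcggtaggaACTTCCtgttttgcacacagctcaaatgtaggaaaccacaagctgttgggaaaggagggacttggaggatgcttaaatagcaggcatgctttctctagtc
Cxcl10, chr5:92348890-92349139, minus strand: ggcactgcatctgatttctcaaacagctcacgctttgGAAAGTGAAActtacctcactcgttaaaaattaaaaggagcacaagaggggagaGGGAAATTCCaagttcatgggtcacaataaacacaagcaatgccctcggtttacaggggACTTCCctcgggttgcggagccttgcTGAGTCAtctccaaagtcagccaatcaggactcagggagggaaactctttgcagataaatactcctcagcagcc
The motifs, searched on both strands, were GGAAGT (bound by ETS factors, among them the macrophage factor PU.1), TGANTCA (AP-1), the NF-kB motif (GGGA and TTCC with 2 bases between) and the interferon-stimulated response element (GAAA at both ends with 2 bases between), and in the sequences shown no match overlaps another. Of the 38 genes, 30 matched a promoter, with 31 promoters between them; Adgre1, C1qa, H2-Ab1, Cd4, Ms4a1, Ccl2, Ccl5 and Tlr4 are named only. GGAAGT occurred in 18 of the 31 promoters (58.1%), against 19.7% of all 32851 promoters of this length. TGANTCA occurred in 12.9% of the 31, those of Cd68, Trem2, Itgax and Cxcl10, against 6.75% of all. The NF-kB motif occurred in 3.23% against 1.21%, and the interferon element in 6.45% against 2.98%. Cd68 held TGANTCA in 2 places. Lyz1 and Lyz2 start 10596 bases apart and their windows are 79.4% identical over 252 aligned columns, with 92 of the last 100 bases the same. Both encode closely related lysozymes, and whether the array's probes tell their transcripts apart was not tested. A match describes the letters and is not evidence that a factor binds.

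The deposited values are log2 signals, and a difference of 1 is a doubling of the signal. In these bulk livers fewer cells of a type and less RNA per cell cannot be told apart. A probe set was taken as not told from background where its group mean lay under 4.61, the 95th percentile of 1405 olfactory and vomeronasal receptor probe sets. By this level 26 of the 38 genes were above background in at least 1 group and 20 in all 8. The 12 genes that were not above it in any group were Itgam, Itgax, Ccr2, Cd4, Cd8a, Gzma, Ms4a1, S100a8, S100a9, Tnf, Il1b and Tlr4, so that small differences in these carry little weight. Clec4f, Cd5l, Vsig4 and C1qb, of the Kupffer cell and resident macrophage class, were above it in every group. All 12 hepatocyte markers and all 10 sinusoidal endothelial markers were above background, whereas 5 of 7 cholangiocyte markers were not.

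A pair of UN-17w livers stood apart from the other 28 and touches every result at 17 weeks. The median correlation with the other arrays was 0.837 for UN-17w replicate 14 and 0.958 for UN-17w replicate 13, against 0.977 to 0.985 for the rest. Replicate 14 had a hepatocyte marker mean of 8.87, where no other liver was under 10.89. The SD over probe sets was 1.48 in replicate 14 and 1.90 to 2.01 in all others. The medians and the leading genes at 17 weeks are therefore given with and without these livers, and 0 of the 38 genes were called in either case. With 3 or 4 arrays a group, the precision of all values is limited by that number.

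Averaged over its genes, each class covered a narrow range in most groups. The Kupffer cell class had a mean log2 signal of 6.77 ± 0.01 in UN-9w and 6.92 ± 0.14 in NN-9w (SD, n = 3 each). At 17 weeks it was 6.94 ± 1.11 in UN-17w and 6.74 ± 0.22 in NN-17w (n = 4 each). At 22 weeks it was 7.19 ± 0.08 in UN-TU, 6.97 ± 0.16 in UN-Veh, 6.99 ± 0.22 in NN-TU and 7.29 ± 0.23 in NN-Veh (n = 4 each). UN-17w replicates 13 and 14 had 8.29 and 5.58, against 6.98 and 6.93 in replicates 11 and 12, and the livers of the 22-week groups overlapped between neighbours. The recruited macrophage class lay between 4.77 ± 0.04 in UN-9w and 5.07 ± 0.14 in UN-Veh, and the lymphocyte class between 4.25 ± 0.10 in NN-17w and 4.52 ± 0.36 in UN-17w, where replicates 13 and 14 had 5.02 and 4.55 and replicates 11 and 12 had 4.21 and 4.30. Antigen presentation had its lowest mean, 6.66 ± 0.37, in NN-17w and its highest, 7.63 ± 0.71, in UN-Veh, where single livers ranged between 6.85 and 8.45.

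**Figure D1:**
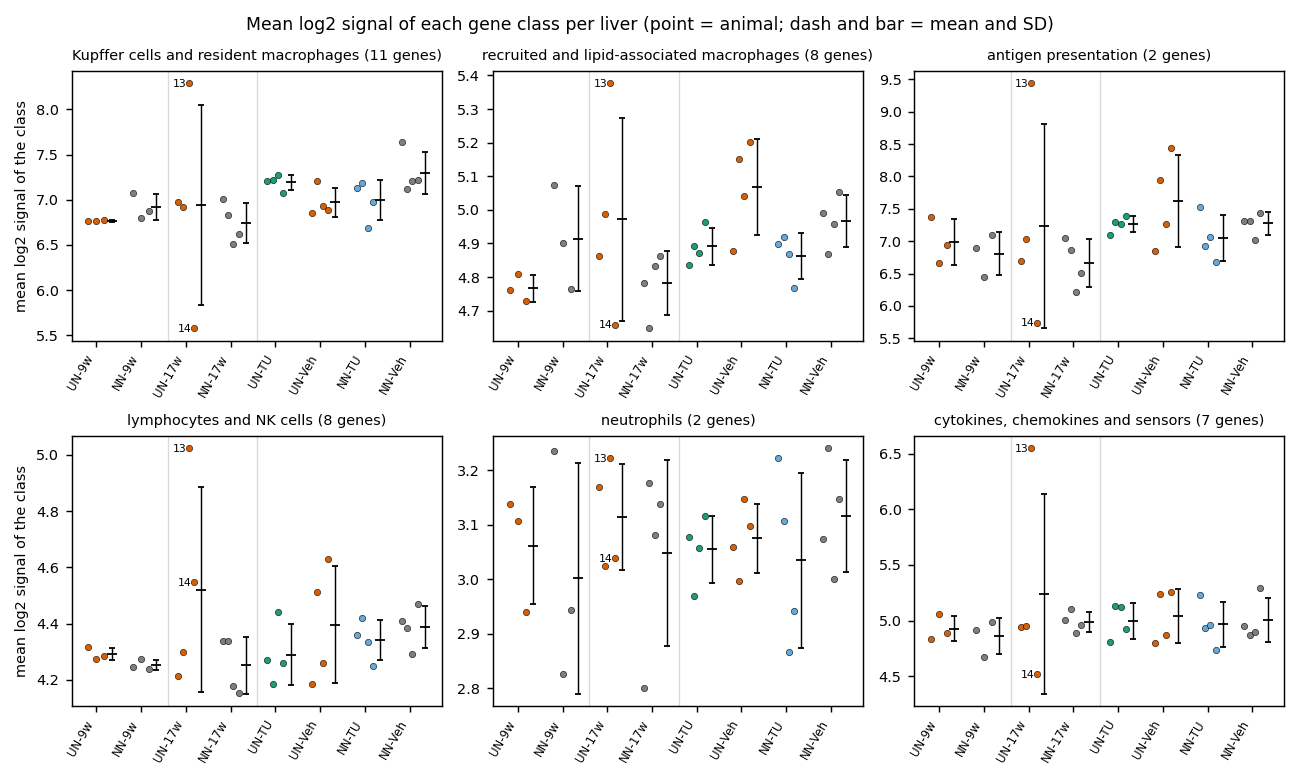
Mean log2 signal of the genes of each class (vertical axis) per liver, by group (horizontal axis); points are animals, and the dash and bar give the group mean and SD. UN-17w replicate 13 is the highest liver for Kupffer cell genes (8.29), antigen presentation (9.45) and cytokines, chemokines and sensors (6.55), and replicate 14 is the lowest for Kupffer cell genes (5.58).

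Before HFD the immune genes of UN and NN livers differed by less than the test could separate. At 9 weeks, 0 of 38 genes passed an adjusted p under 0.05 in UN-9w against NN-9w (limma), as did 0% of all 25341 probe sets tested in either direction. The methods' analysis of variance also called 0. Here and below, its calls needed an adjusted p under 0.05. The authors' own cut-off was a 2-fold change with an analysis of variance p under 0.05, with no adjustment named. The median difference of the 38 genes was -0.04, beside -0.00494 for all probe sets. Before adjustment, 1 gene was lower at p under 0.05, against 1.85% of all probe sets, and 0 were higher, against 1.75%. That gene was Timd4, the phosphatidylserine receptor of resident Kupffer cells, at 6.00, 6.16 and 6.13 in UN-9w livers and 6.43, 6.22 and 6.40 in NN-9w livers. The 3 UN-9w livers lay just under the 3 NN-9w livers, with a difference of -0.26 (SE 0.11, unadjusted p = 0.0466, adjusted p = 1.0 in limma). Of the 11 Kupffer cell genes 10 had a lower mean in UN-9w, with a class median of -0.17. In all, 2 of the 38 genes did not overlap with lower UN-9w values, Timd4 and the complement subunit C1qb (4.85% of all probe sets), and 2 with higher ones, Ccr2 and Tnf (4.19%). Cd4, the T helper co-receptor, had the next smallest p, at 4.10, 4.28 and 4.03 in UN-9w and 4.04, 3.73 and 3.83 in NN-9w (difference 0.27, SE 0.12, adjusted p = 1.0), all under the background level. Lyz1 followed, at 3.61, 4.45 and 3.83 in UN-9w and 4.80, 4.54 and 4.06 in NN-9w (difference -0.50, SE 0.24, adjusted p = 1.0), with overlap between the groups.

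At 17 weeks the largest departures were between UN livers rather than between UN and NN. In UN-17w replicate 13, 34 of the 38 genes were above the NN-17w mean, 20 of them by more than 1 on the log2 scale, beside 2.04% of all probe sets. The median of the 38 genes over the NN-17w mean was 1.07 in this liver, beside -0.01 for all probe sets. Of the 38 genes 23 had their highest value of all 30 livers there (60.5%), beside 10.2% of all probe sets. Marco, a scavenger receptor for bacteria and debris, was at 5.79, 5.79, 9.93 and 4.88 in UN-17w replicates 11 to 14 and at 6.10, 6.16, 5.90 and 5.16 in NN-17w livers. Adgre1, an adhesion receptor that marks mouse macrophages, was at 6.76, 6.54, 8.76 and 5.45 in UN-17w and 6.91, 6.67, 6.25 and 6.20 in NN-17w. In both genes replicate 13 was above and replicate 14 below every NN-17w liver, while replicates 11 and 12 lay among them. The high genes of replicate 13 spanned classes. Its MHC class II genes H2-Aa and H2-Ab1 lay 2.79 and 2.78 above the NN-17w mean. Its interferon-induced chemokine Cxcl9 was 2.72 and its T cell chemokine Ccl5 2.44 above it. Other markers did not follow: the B cell genes Cd79a and Ms4a1 were -0.04 and 0.14 from that mean, the neutrophil genes S100a8 and S100a9 0.36 and -0.01, and Trem2 and Cd9 -0.10 and -0.15. The other recruited and lipid-associated genes were above the mean by 0.43 (Ccr2) to 1.38 (Lyz2), Gpnmb by 0.79.

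In replicate 14, 12 of the 38 genes were more than 1 below the NN-17w mean, a share close to the 26.7% of all probe sets, and the median of the 38 was -0.47, beside -0.21 for all probe sets. All 11 Kupffer cell genes were below the mean, between -0.50 (Cd68) and -1.70. The most negative were Clec4f, a Kupffer cell lectin, and Cd5l, a protein secreted by tissue macrophages, both at -1.70, and Cxcl9 was at -1.92. Of the recruited macrophage class Itgam (0.78), Gpnmb (0.61) and Ccr2 (0.26) were above the mean and the other 5 below it. The lymphocyte class was mixed: Cd79a (1.44), Cd3e (1.23), Ms4a1 (0.90), Gzma (0.39) and Cd4 (0.21) were above the mean, while Ptprc (-1.14), Nkg7 (-0.51) and Cd8a (-0.16) were below it. In the recruited and lymphocyte classes, every gene above the mean had an NN-17w mean under the background level (2.64 for Gzma to 4.49 for Cd3e). Cd8a, Itgax and Lyz1 were also under that level. Ptprc (5.76), Nkg7 (5.64) and all 11 Kupffer cell genes were over it. The part of signal level in the values of this array, with its low SD, was not tested. The hepatocyte, endothelial and stellate marker means of this liver (8.87, 6.04 and 5.73) were each the lowest of the UN-17w group, and their part in its values was not tested.

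**Figure D2:**
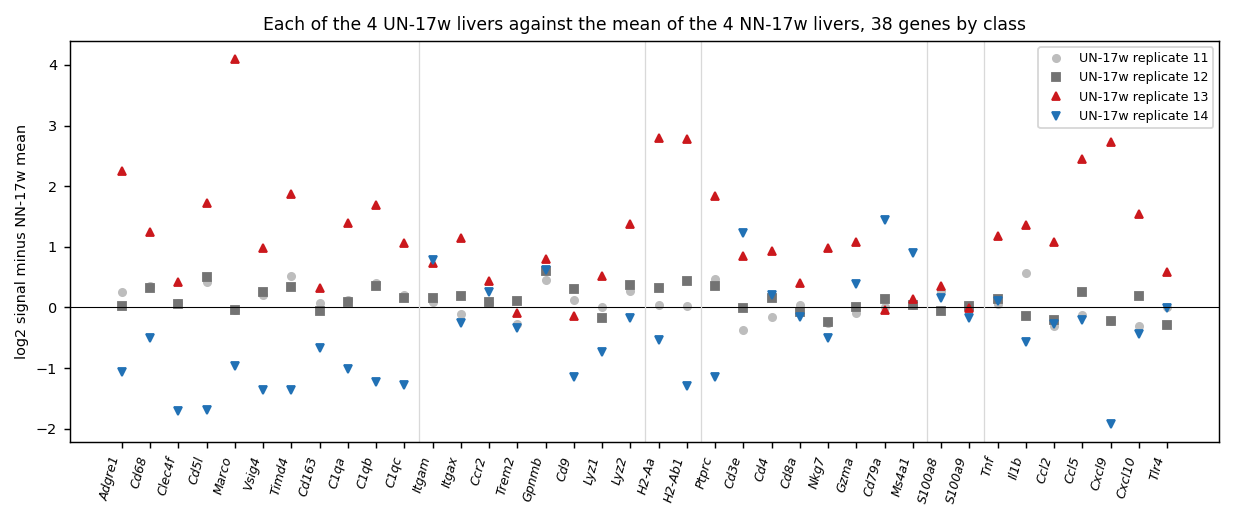
Log2 signal of each UN-17w liver minus the mean of the 4 NN-17w livers (vertical axis, log2) for the 38 genes, ordered by class (horizontal axis, grey lines between classes). Replicates 11 and 12 lie close to 0, replicate 13 is over 1 for 20 genes and reaches 4.10 for Marco, and replicate 14 is under -1 for 12 genes.

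Across the 4 UN-17w and 4 NN-17w livers, 0 of 38 genes passed an adjusted p under 0.05 in limma, with 0% of all probe sets called in either direction, and the methods' analysis of variance called 0. The median difference of the 38 genes was 0.26 (all probe sets -0.05). It was -0.11 without replicate 13, 0.43 without replicate 14 and 0.08 without both. Unadjusted, 2 genes were higher at p under 0.05 (1.29% of all probe sets) and 0 lower (1.71%). Gpnmb, a transmembrane glycoprotein of lysosome-rich macrophages, was at 4.87, 5.01, 5.21 and 5.03 in UN-17w livers and at 4.31, 4.22, 4.53 and 4.60 in NN-17w livers. It was the 1 gene whose groups did not overlap (1.49% of all probe sets higher, 2.34% lower, against 0 genes lower), replicates 13 and 14 included, with a difference of 0.62 (SE 0.14, unadjusted p = 0.00197, adjusted p = 0.721 in limma). The difference was 0.53 without replicates 13 and 14. The NN-17w values lie at or below the background level, so that the size of the difference is uncertain. Itgam, the integrin CD11b of monocytes and neutrophils, was at 3.83, 3.90, 4.47 and 4.52 in UN-17w and 3.85, 3.53, 3.82 and 3.74 in NN-17w (difference 0.44, SE 0.20, adjusted p = 0.721), and at 0.13 without replicates 13 and 14.

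At 22 weeks UN-Veh livers had lower means than NN-Veh livers for most Kupffer cell genes, and none of these differences passed the adjusted test. In UN-Veh against NN-Veh 0 of 38 genes had an adjusted p under 0.05 (limma; 0 also by the methods' analysis of variance), against 0.312% of all probe sets called higher and 0.107% called lower. The median of the 38 genes was -0.01, beside 0.02 for all probe sets. The Kupffer cell class had 10 of 11 genes lower with a median of -0.33, and the recruited macrophage class 7 of 8 higher with a median of 0.09. Only Trem2, Gpnmb, Cd9 and Lyz2 of the recruited class had means above background in both groups. The 21 further macrophage genes had a median of -0.07, with 14 lower. Markers of other cells also moved: 10 of 10 sinusoidal endothelial markers (median 0.14) and 9 of 12 stellate markers (median 0.11) were higher in UN-Veh and 8 of 12 hepatocyte markers (median -0.16) lower, and their part in these differences was not tested. Before adjustment, 4 of the 38 genes were lower at p under 0.05 (3.42% of all probe sets) and 2 higher (5.89%), and 0 genes were free of overlap (4.72% of all probe sets higher, 2.88% lower). Timd4 was at 5.95, 6.28, 5.82 and 4.86 in UN-Veh and 6.72, 6.19, 6.37 and 6.39 in NN-Veh (difference -0.69, SE 0.21, adjusted p = 0.187). Adgre1 was at 6.42, 7.18, 6.62 and 7.10 in UN-Veh and 7.67, 7.16, 7.21 and 7.29 in NN-Veh (difference -0.50, SE 0.15, adjusted p = 0.207). UN-Veh replicate 26 was the lowest liver for Timd4, and without it the Timd4 difference was -0.40. Both genes overlapped between the groups through UN-Veh replicate 24. Marco (-0.70, SE 0.26) and Clec4f (-0.34, SE 0.13) were the other genes that were lower, with adjusted p = 0.354 and 0.407. Gpnmb and Trem2, the lipid-sensing receptor of macrophages, were higher by 0.37 (SE 0.15, adjusted p = 0.425) and 0.20 (SE 0.09, adjusted p = 0.510).

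In TUDCA-treated NN livers 1 macrophage gene was called lower, a call that did not hold in every setting. In NN-TU against NN-Veh, Adgre1 was lower in all 4 livers than in any of the vehicle group, and it was the only one of the 38 genes past an adjusted p under 0.05 (1.06% of all probe sets were called lower and 0.292% higher). It was at 6.85, 6.64, 6.29 and 6.75 in NN-TU livers and at 7.67, 7.16, 7.21 and 7.29 in NN-Veh livers. The difference was -0.70 (SE 0.15, adjusted p = 0.0256 in limma), a fold of 0.617. Cd5l was at 7.97, 8.18, 7.29 and 7.37 in NN-TU and 8.59, 8.16, 8.24 and 8.37 in NN-Veh, with a difference of -0.64 (SE 0.17, adjusted p = 0.0658). NN-TU replicate 20 overlapped NN-Veh replicate 16 for Cd5l. Unadjusted, 8 genes were lower at p under 0.05 (11.5% of all probe sets) and 1 higher (4.19%). The groups did not overlap for 2 lower genes, Adgre1 and C1qa (5.8% of all probe sets), and 1 higher gene, Tlr4 (2.17%). Of the 8, 6 were Kupffer cell genes: besides Adgre1 and Cd5l these were C1qc (-0.38), Cd68 (-0.32), Clec4f (-0.29) and C1qa (-0.24). The others were the leukocyte phosphatase Ptprc (CD45, -0.36) and the lysozyme gene Lyz2 (-0.31). The gene that was higher was Cd163, the haemoglobin scavenger receptor (0.36, SE 0.16, adjusted p = 0.259). The median of the 38 genes was -0.18 (all probe sets -0.04), and that of the Kupffer cell class -0.30.

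The Adgre1 call was not stable to single livers. It was lost without NN-Veh replicate 15 (difference -0.58, adjusted p = 0.0917), NN-Veh replicate 18 (-0.71, adjusted p = 0.0620), NN-TU replicate 21 (-0.58, adjusted p = 0.106) or NN-TU replicate 22 (-0.74, adjusted p = 0.0561), and by the methods' analysis of variance (adjusted p = 0.270). Without NN-TU replicate 19 or 20, Cd5l was called as well. NN-TU replicates 21 and 22 had the lowest Kupffer cell class means of their group (6.69 and 6.97) and hepatocyte marker means of 10.89 and 10.91, where the NN-Veh livers lay between 11.20 and 11.45. Their arrays also had the lowest SD over probe sets of cohort 3 (1.92 and 1.91) and its lowest median correlations (0.978 each). Without both livers, the Adgre1 difference was -0.59 (adjusted p = 0.235 in limma) and the median of the 38 genes -0.05. The part of these livers' other markers, and of the lower SD of their arrays, in the result was not tested.

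In UN livers 0 of 38 genes passed the adjusted test in UN-TU against UN-Veh (limma; 0 by the methods' analysis of variance), against 0.138% of all probe sets called higher and 0.268% lower. Before adjustment, 3 genes were higher at p under 0.05 (4.96% of all probe sets) and 3 lower (5.64%). Free of overlap were 2 higher genes, Vsig4 and Tlr4 (3.69% of all probe sets), and 1 lower gene, Lyz1 (3.68%). Lyz1 was at 4.28, 4.11, 4.23 and 4.19 in UN-TU livers and at 4.59, 4.64, 4.64 and 4.81 in UN-Veh livers. The UN-TU livers lay below all UN-Veh livers, with a difference of -0.47 (SE 0.11, adjusted p = 0.0733), and only the UN-Veh mean was above the background level. Among probe sets brighter than the median the adjusted p was 0.0473. Tlr4, the receptor for bacterial lipopolysaccharide, was at 4.12, 4.36, 4.32 and 4.42 in UN-TU and 3.96, 3.92, 4.11 and 4.08 in UN-Veh (difference 0.29, SE 0.09, adjusted p = 0.191), all under the background level. Trem2 was at 4.76, 4.86, 4.58 and 4.59 in UN-TU and 4.78, 5.14, 5.02 and 4.92 in UN-Veh (difference -0.27, SE 0.09, adjusted p = 0.273). For Trem2 the groups met between 4.78 and 4.86. The other unadjusted differences were Vsig4, a complement receptor of Kupffer cells (0.48, SE 0.17), Timd4 (0.45, SE 0.21) and the T cell receptor component Cd3e (-0.28, SE 0.13). The Kupffer cell class had all 11 means higher in UN-TU, with a median of 0.16, and the recruited class 6 of 8 lower, with a median of -0.23. Only Trem2, Gpnmb, Cd9 and Lyz2 of the recruited class were above background in both groups.

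The interaction, the TUDCA difference in UN minus that in NN, asked whether the prenatal groups differed in it. None of the 38 genes passed an adjusted p under 0.05 (limma; 0% of all probe sets in either direction, 0 by the methods' analysis of variance). Unadjusted, 8 genes were positive at p under 0.05 (7.95% of all probe sets) and 3 negative (3.93%), and all 8 positive ones were Kupffer cell genes. Adgre1 had an interaction of 0.97 (SE 0.22, adjusted p = 0.107), made of a difference of 0.27 (SE 0.15) in UN and -0.70 (SE 0.15) in NN. It reached an adjusted p of 0.0488 without NN-TU replicate 19. Cd5l had 0.75 (SE 0.24, adjusted p = 0.234), Timd4 0.71 (SE 0.29, adjusted p = 0.336) and Vsig4 0.67 (SE 0.24, adjusted p = 0.275), and the class median was 0.55, beside 0.04 for all probe sets. Hepatocyte markers moved the same way, with 11 of 12 positive, 5 of them at an unadjusted p under 0.05, and a median of 0.20, and so did the 21 further macrophage genes, with 16 positive and a median of 0.26; the part of the hepatocyte share in the interaction was not tested. Lyz1 was negative at -0.46 (SE 0.16, adjusted p = 0.256). In UN-TU against NN-TU, 0 genes passed the adjusted test (0.347% of all probe sets higher, 0.126% lower; 0 by the methods' analysis of variance). Of the 38, 4 were higher at an unadjusted p under 0.05 (13.3% of all probe sets) and 1 lower (3.78%): Adgre1 (0.47, SE 0.15, adjusted p = 0.140), Cd5l, Cd68 and Gpnmb were higher and Lyz1 was lower (-0.39, SE 0.11, adjusted p = 0.0973). The groups did not overlap for 2 higher genes, Adgre1 and C1qc (5.87% of all probe sets), and 1 lower gene, Lyz1 (1.7%). These comparisons share the 4 groups of cohort 3, so that a high or low NN-Veh or NN-TU liver enters more than 1 of them.

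**Figure D3:**
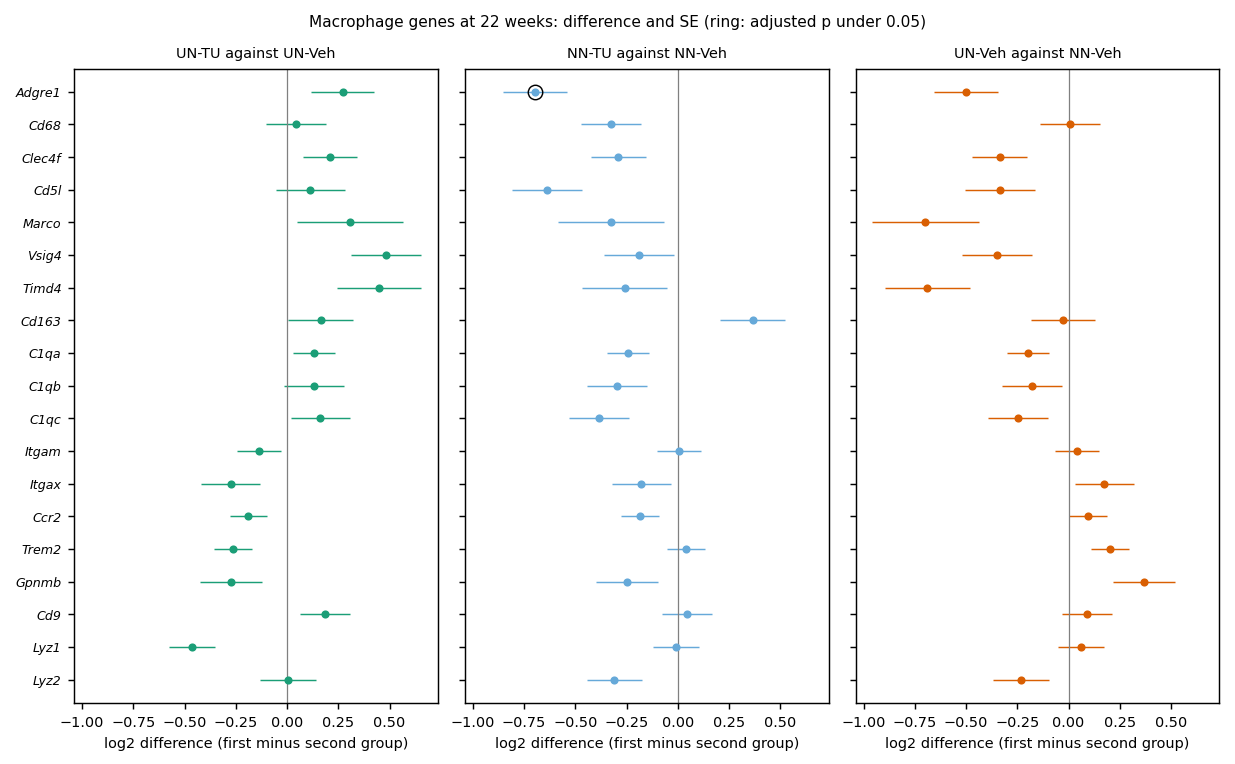
Log2 difference and SE (horizontal axis) of the 19 macrophage genes at 22 weeks, for UN-TU against UN-Veh, NN-TU against NN-Veh and UN-Veh against NN-Veh; rings mark an adjusted p under 0.05. The 11 Kupffer cell genes at the top lie right of 0 in the first panel and, except Cd163, left of 0 in the second, with Adgre1 in NN-TU (-0.70) the only ring.

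With UN and NN pooled, TUDCA against vehicle gave 0 calls among the 38 genes (limma; 0 by the methods' analysis of variance), beside 0.426% of all probe sets called higher and 1.27% lower. Before adjustment, 3 genes were higher at p under 0.05 (4.04%) and 8 lower (10.2%), and 0 genes were free of overlap (0.0671% of all probe sets higher, 0.197% lower). Tlr4 came closest, with values between 4.12 and 4.47 in the 8 TUDCA livers and between 3.92 and 4.19 in the 8 vehicle livers, all under the background level. The difference was 0.24 (SE 0.06, adjusted p = 0.0647), and it passed the test after repeated quantile normalization (adjusted p = 0.0286) and without UN-TU replicate 27 (adjusted p = 0.0404). Lyz1 (-0.24, SE 0.08, adjusted p = 0.146) and Ccr2 (-0.19, SE 0.07, adjusted p = 0.174) followed. Of the recruited macrophage class 7 of 8 genes were lower, with a median of -0.17, beside -0.03 for all probe sets. Only Trem2, Cd9 and Lyz2 of this class had means above background in every group compared, which limits what the class count shows. The stellate cell collagen genes Col1a1 (-0.41, SE 0.09, adjusted p = 0.0169) and Col3a1 (-0.43, SE 0.09, adjusted p = 0.0232) fell in the same comparison, and 8 of 12 stellate markers were lower (median -0.10); their part in the result was not tested.

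The clearest differences were between vehicle livers at 22 weeks on HFD and livers at 9 weeks on chow. In UN-Veh against UN-9w 5 of 38 genes rose and 0 fell (limma; 4.7% of all probe sets were called higher and 2.07% lower), 3 of the 5 in the recruited macrophage class. Cd68, a lysosomal glycoprotein of macrophages, was at 6.95, 7.39, 7.26 and 7.38 in UN-Veh livers and 6.72, 6.17 and 6.46 in UN-9w livers (difference 0.80, SE 0.16, adjusted p = 0.00236). Trem2 was at 4.78, 5.14, 5.02 and 4.92 in UN-Veh and 4.57, 4.47 and 4.63 in UN-9w (difference 0.41, SE 0.10, adjusted p = 0.0102). For both genes every UN-Veh liver was above every UN-9w liver. Lyz1 was at 4.59, 4.64, 4.64 and 4.81 in UN-Veh and 3.61, 4.45 and 3.83 in UN-9w (difference 0.70, SE 0.17, adjusted p = 0.0114). Ccl5 was at 5.23, 5.91, 5.15 and 6.26 in UN-Veh and 4.68, 4.92 and 4.58 in UN-9w (difference 0.91, SE 0.23, adjusted p = 0.0143). Gpnmb was at 4.68, 4.91, 4.88 and 5.52 in UN-Veh and 4.36, 4.59 and 4.51 in UN-9w (difference 0.51, SE 0.15, adjusted p = 0.0433). These groups did not overlap either, nor did those of Itgam and Ccr2, which makes 7 genes free of overlap with higher UN-Veh values (12% of all probe sets) and 0 with lower ones (6.95%). The UN-9w group means of Trem2, Lyz1 and Gpnmb were under the background level. Only Cd9 and Lyz2 of the recruited macrophage class were above it in both groups, and neither was called. Cd9 had a mean of 6.37 in UN-Veh and 6.65 in UN-9w, and Lyz2 7.54 and 7.43. Unadjusted, 14 genes were higher at p under 0.05 (12.1% of all probe sets) and 0 lower (6.85%), among them Itgam (0.35), Cd5l (0.49), Itgax (0.41), C1qb (0.38), H2-Ab1 (0.66) and H2-Aa (0.62). The median of the 38 genes was 0.20, beside 0.02 for all probe sets.

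The count of 5 moved with single livers. It was 2 without UN-9w replicate 4 or replicate 6, 3 without UN-9w replicate 5, UN-Veh replicate 24 or UN-Veh replicate 26, 4 without UN-Veh replicate 25 and 9 without UN-Veh replicate 23. Trem2 was lost without UN-9w replicate 5 (adjusted p = 0.0636), Lyz1 without UN-9w replicate 4 or 6, Ccl5 without UN-9w replicate 4 or 6 or UN-Veh replicate 24 or 26, and Gpnmb without every liver but UN-Veh replicate 23. Cd68 was called in each of these 7 fits, with a difference between 0.66 and 0.93. The methods' analysis of variance and a fit of all 30 arrays each gave 0 calls. The share of all probe sets called in these settings is not given here. The fit of all 30 arrays held UN-17w replicates 13 and 14, so that their spread entered its SEs. For Cd68 the SD was 0.71 in UN-17w, 0.20 in UN-Veh and 0.27 in UN-9w. Hepatocyte marker means lay at 11.06 to 11.16 in UN-Veh and 11.45 to 11.53 in UN-9w, and stellate marker means at 6.69 to 6.94 in UN-Veh and 6.55 to 6.61 in UN-9w; their part in the rises was not tested.

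In NN-Veh against NN-9w, 2 of the 38 genes rose and 1 fell (limma; 1.96% of all probe sets were called higher and 1.47% lower). Adgre1 was at 7.67, 7.16, 7.21 and 7.29 in NN-Veh livers and 7.01, 6.15 and 6.53 in NN-9w livers (difference 0.77, SE 0.19, adjusted p = 0.0236). Cd68 was at 7.58, 7.19, 6.99 and 7.20 in NN-Veh and 6.61, 6.63 and 6.58 in NN-9w (difference 0.63, SE 0.16, adjusted p = 0.0236). Both genes were higher in every NN-Veh liver. Cd9, a membrane tetraspanin that is not confined to macrophages, was at 6.27, 6.21, 6.17 and 6.47 in NN-Veh and 7.27, 6.65 and 6.64 in NN-9w (difference -0.57, SE 0.15, adjusted p = 0.0296). Its probe sets disagreed in size, with a difference of -0.29 (adjusted p = 0.157) for their mean. Before adjustment, 9 genes were higher at p under 0.05 (8.69% of all probe sets) and 1 lower (7.13%), and 7 of the 9 were Kupffer cell genes, C1qc (0.52), Cd5l (0.61), Clec4f (0.38), C1qb (0.35) and Vsig4 (0.37) among them. The median of the 38 genes was 0.18, and all 8 lymphocyte genes had a higher mean in NN-Veh (median 0.10), beside 0.00312 for all probe sets. Of these 8 only Ptprc (6.32 in NN-Veh, 5.99 in NN-9w) and Nkg7 (5.73 and 5.62) were above background. The others were under it in both groups, so that a rise of the whole class is not shown. With higher NN-Veh values 9 genes did not overlap (8.07% of all probe sets), 6 of them of Kupffer cells, and with lower ones 1, Cd9 (7.03%). The count of 3 was 1 without NN-9w replicate 1, 2 or 3, 0 without NN-Veh replicate 15, and 2 without NN-Veh replicate 16 or 17. Adgre1 was lost without NN-9w replicate 2 or 3 or NN-Veh replicate 15, Cd68 without any NN-9w liver or NN-Veh replicate 15, and Cd9 without NN-9w replicate 1 or NN-Veh replicate 15, 16 or 17. The methods' analysis of variance, a fit of all 30 arrays, and the addition of probe sets without a gene each gave 0, and 1 was called when only these groups were fitted. The fit of all 30 arrays again took in the spread of UN-17w replicates 13 and 14. For Adgre1 the SD was 1.38 in UN-17w, 0.23 in NN-Veh and 0.43 in NN-9w.

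**Figure D4:**
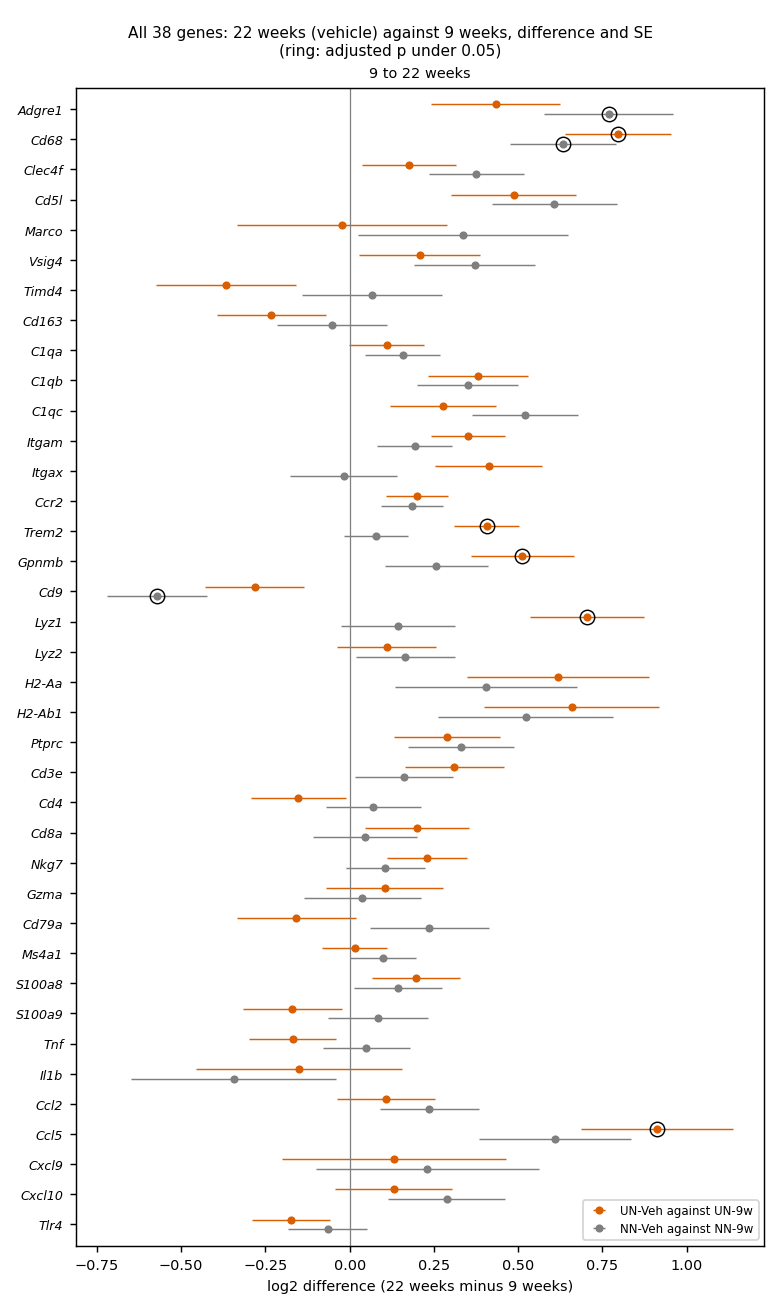
Log2 difference between 22 weeks with vehicle and 9 weeks (horizontal axis) with SE for all 38 genes, for UN-Veh against UN-9w (orange) and NN-Veh against NN-9w (grey); rings mark an adjusted p under 0.05. Cd68 is ringed in both, Trem2, Gpnmb, Lyz1 and Ccl5 in UN, and Adgre1 and Cd9 in NN.

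The difference between these 2 changes, UN minus NN, was itself tested and gave 0 calls among the 38 genes (limma; 0% of all probe sets in either direction; 0 by the methods' analysis of variance). Unadjusted, 2 genes were positive at p under 0.05 (4.57% of all probe sets) and 0 negative (2.62%). These were Lyz1 (0.56, SE 0.24, adjusted p = 0.638) and Trem2 (0.33, SE 0.14, adjusted p = 0.637). For Gpnmb the difference of changes was 0.26 (SE 0.22, adjusted p = 0.865), for Ccl5 0.30 (SE 0.32, adjusted p = 0.907) and for Adgre1 -0.33 (SE 0.27, adjusted p = 0.857). The calls in one prenatal group and not in the other are thus not shown to differ between them.

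At 17 weeks against 9 weeks 0 of 38 genes were called in UN (0.0316% of all probe sets higher, 0.0908% lower) and 0 in NN (0% higher, 0.0158% lower), in limma and in the methods' analysis of variance alike. In UN-17w against UN-9w, 3 genes were higher at an unadjusted p under 0.05 (2.9% of all probe sets) and 0 lower (5.53%). Gpnmb was at 4.87, 5.01, 5.21 and 5.03 in UN-17w and 4.36, 4.59 and 4.51 in UN-9w (difference 0.54, SE 0.13, adjusted p = 0.241). It was one of 3 genes free of overlap with higher UN-17w values, with Itgam and Ccr2 (2.64% of all probe sets, and 0 genes against 6.23% lower), differed by 0.46 without replicates 13 and 14, and was called with array weights (0.48, adjusted p = 0.0392). Itgam (0.47, SE 0.17) and S100a8 (0.30, SE 0.12) were the others, and without replicates 13 and 14 Itgam was at 0.16 and S100a8 at 0.22. In NN-17w against NN-9w 0 genes passed an unadjusted p under 0.05 in either direction, against 1.12% of all probe sets higher and 1.37% lower, and Gpnmb had a difference of 0.04 (SE 0.13). There the groups did not overlap for 1 higher gene, the monocyte chemokine Ccl2 (0.32, SE 0.27; 5.17% of all probe sets), and 1 lower gene, Cd9 (-0.55, SE 0.28; 4.81%). The fit held the UN groups too, so the spread of UN-17w replicates 13 and 14 entered these SEs. For Ccl2 the SD was 0.67 in UN-17w, 0.04 in NN-17w and 0.13 in NN-9w. The unadjusted counts for the NN groups are therefore cautious. With only the NN groups fitted, 0 genes passed an adjusted p under 0.05 (limma).

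Lymphocyte, neutrophil and cytokine genes gave no call besides Ccl5. Of the 8 lymphocyte genes the smallest adjusted p in any of the 13 comparisons was that of Ptprc in NN-TU against NN-Veh (0.243). Cd3e, at 4.53, 4.96, 4.45 and 4.94 in UN-Veh, was at 4.36, 4.29 and 4.57 in UN-9w (difference 0.31, SE 0.15, adjusted p = 0.244). S100a8 and S100a9, the neutrophil calprotectin genes, stayed between 2.15 and 4.21 in all 30 livers, under the background level. Tnf and Il1b, the inflammatory cytokines, were under it in every group mean as well. Single livers departed for Il1b, which was at 3.37, 5.50 and 4.22 in UN-9w and 4.77, 3.61 and 4.50 in NN-9w. Cxcl9 was at 7.53, 9.04, 7.59 and 8.27 in UN-Veh and 8.12, 7.80, 7.62 and 8.75 in NN-Veh, and the values of the groups were interleaved. The probe set shared by Cd74, the MHC class II chaperone, and Mir5107 had a difference of 0.53 (SE 0.21, adjusted p = 0.146) in UN-Veh against UN-9w.

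Other genes of the same cells, 106 in 7 lists, were read beside the 38. In UN-Veh against UN-9w 4.7% of all probe sets were called higher and 2.07% lower, and in NN-Veh against NN-9w 1.96% and 1.47%, which are the shares to set beside the counts that follow. Of 21 further Kupffer cell and macrophage genes 4 rose and 0 fell in UN-Veh against UN-9w: the lectin receptor Clec1b (0.63), the efferocytosis receptors Axl (0.62) and Mertk (0.36), and the lysosomal protease Lgmn (0.50). In NN-Veh against NN-9w 3 of the 21 rose, Clec1b (0.76), Axl (0.50) and Mpeg1 (0.93), a pore-forming protein of macrophages. Mpeg1 fell in NN-TU against NN-Veh by 0.98 (SE 0.22, adjusted p = 0.0258 in limma), the 1 gene called of these 21. In that comparison 1.06% of all probe sets were called lower and 0.292% higher. Of 12 further lipid-associated macrophage genes 4 rose in UN-Veh against UN-9w, the fatty acid translocase Cd36 (1.99), Mmp12 (0.73), Apoe (0.51) and Ctsb (0.33), and Fabp5 fell by 1.14. Both Mmp12 means, 4.56 in UN-Veh and 3.83 in UN-9w, were under the background level, which leaves the size of this rise uncertain. Cd36, Apoe and Ctsb are also made by hepatocytes. In NN-Veh against NN-9w Cd36 rose (1.43) and Fabp5 fell by 1.06. Of 12 further neutrophil genes 1 rose in each of these comparisons, Lcn2 (2.62 in UN and 1.56 in NN), which hepatocytes also make in the acute phase. Lcn2 also rose in UN-17w against UN-9w, by 2.47 (SE 0.42, adjusted p = 0.0449 in limma), and by 2.35 without UN-17w replicates 13 and 14 (adjusted p = 7.62e-06). With all livers, 0.0316% of all probe sets were called higher there and 0.0908% lower.

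Among 17 further T and NK cell genes, Themis, a T cell signalling adaptor, was called most often. It rose by 1.05 (SE 0.19, adjusted p = 0.0150 in limma) in UN-Veh against NN-Veh, where 0.312% of all probe sets were called higher. It fell by 1.93 (SE 0.19) in UN-TU against UN-Veh (0.268% of all probe sets lower) and by 1.12 (SE 0.19) in NN-TU against NN-Veh (1.06% lower). It also rose by 2.23 (SE 0.30, adjusted p = 0.00879) in UN-17w against UN-9w (2.73 without replicates 13 and 14), where 0.0316% of all probe sets were called higher. Its rise was 1.92 (SE 0.19) in UN-Veh against UN-9w and 1.23 (SE 0.19) in NN-Veh against NN-9w. Its means in UN-TU, NN-TU, UN-9w and NN-9w were under the background level. The T cell genes of the 38 passed the adjusted test in none of these comparisons: in UN-Veh against NN-Veh, UN-TU against UN-Veh and NN-TU against NN-Veh, Cd3e had differences of 0.24, -0.28 and 0.17, Cd4 of 0.05, -0.19 and 0.00425, and Cd8a of 0.09, -0.21 and -0.15. Gzmk, a granzyme, was also called lower in NN-TU against NN-Veh (-0.43, SE 0.09, adjusted p = 0.0211), with both means under the background level (3.25 in NN-TU and 3.68 in NN-Veh). Zap70, of the same list, rose in NN-Veh against NN-9w (5.46 against 5.02, SE 0.11, adjusted p = 0.0291 in limma), above background and without overlap. Of 10 further antigen presentation genes, Cd86 rose there by 0.51 (SE 0.13, adjusted p = 0.0265), with both means under the background level (4.56 and 4.05). Of 26 further inflammatory signalling genes, Tnfaip3 (0.52) and Ccl3 (0.58) rose and Ccl9 fell by 1.37 in UN-Veh against UN-9w. The Ccl3 means (4.30 in UN-Veh and 3.72 in UN-9w) and the Tnfaip3 mean in UN-9w (4.21) were under the background level. In NN-Veh against NN-9w, Cxcl1 rose (1.46) and Ccl9 fell by 0.85. None of the 9 further B and plasma cell genes was called in any of these comparisons between 22 and 9 weeks (limma; 0 also at an unadjusted p under 0.05).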

How the data were processed

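Total RNA of each liver was amplified, biotinylated and hybridized by the authors to Affymetrix MoGene 2.1 ST array strips, and the deposited values are log2 signals per probe set made with Affymetrix Expression Console, as the submitters' processing notes name it; its version and the summarization method are not given in the sources used here. Values ran between 1.10 and 12.89, array medians between 4.11 and 4.25, and 0 pairs of arrays were identical. Raw intensities were not used here, so the background correction was not varied.

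Of 41345 probe sets, 25341 named by at least 1 gene were tested and 16004 without a gene were left out. The linear models of limma (version 3.58.1, R 4.3.3) held the groups of 1 cohort for comparisons at 1 age and those of both cohorts between ages, with moderated variances and Benjamini-Hochberg adjustment over all 25341 probe sets. A gene was called at an adjusted p under 0.05. P-values measure the spread between animals, whose litters are not given. The members, the classes and the further lists were chosen with earlier results of these data known. Every member may be named, with full values for those called and for up to 3 a comparison with the smallest p. Of other genes, up to 4 called genes per list and comparison were named. Fabp5 was named beyond that limit in UN-Veh against UN-9w. The alternatives were the methods' analysis of variance, all 30 arrays in 1 fit, the compared groups alone, array weights, a robust fit with a variance trend, brighter probe sets, all probe sets, repeated quantile normalization, a common median, the mean of a gene's probe sets, and each array left out. The analysis of variance was fitted to the compared groups without moderated variances. It was called at the same adjusted p, not at the authors' cut-off of a fold change with a p-value. Promoter sequences came from RefSeq (GRCm38.p6) and were aligned with Biopython 1.88. Plots used matplotlib 3.10.9 under Python 3.11.15.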

Additional observations from a re-analysis of the deposited data

Results flagged for a closer look

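In 8 of 228 sets of 4 livers examined, 1 gene in 1 group each, a single liver was far from the other 3. Its gap passed Dixon's 95% limit. For independent sets, chance alone gives that in about 1 set of 20. These sets share livers, so that yardstick does not hold for them, and the count was not tested against chance. UN-17w replicates 13 and 14 held 2 each of the 8. UN-17w replicate 14 was the highest of its group for the B cell genes Cd79a (5.69, the others 4.21 to 4.39) and Ms4a1 (4.52, the others 3.66 to 3.76). UN-17w replicate 13 was the highest for Tnf (4.63, the others 3.51 to 3.59) and Ccl2 (5.98, the others 4.59 to 4.68). In cohort 3 the highest livers were UN-Veh replicate 24 for Itgam (4.38, the others 3.93 to 3.97), UN-Veh replicate 26 for Cd8a (4.39, the others 3.74 to 3.84), NN-Veh replicate 15 for Clec4f (8.68, the others 8.24 to 8.28) and NN-Veh replicate 16 for Cd79a (4.63, the others 4.31 to 4.32).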

How the results depend on the processing

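No paired analysis was possible because the animal numbers are not shared between groups. Of the 13 comparisons, 8 kept a count of 0 called genes whichever liver was left out: UN against NN at 9 weeks, at 17 weeks, with vehicle and with TUDCA, UN-TU against UN-Veh, and 17 against 9 weeks in UN and in NN, and the UN minus NN difference of the change to 22 weeks. Leaving out 1 liver gave 0 to 2 calls in NN-TU against NN-Veh (1 with all livers), 0 to 1 in TUDCA against vehicle (0), 0 to 1 in the interaction (0), 2 to 9 in UN-Veh against UN-9w (5) and 0 to 3 in NN-Veh against NN-9w (3). With the methods' analysis of variance and with all 30 arrays in 1 fit the counts were 0 in NN-TU against NN-Veh, UN-Veh against UN-9w and NN-Veh against NN-9w. The shares of all probe sets called in these settings are not given here, and the spread of UN-17w replicates 13 and 14 entered the fit of all 30 arrays. With all probe sets of the table they were 0 in NN-TU against NN-Veh and 0 in NN-Veh against NN-9w. Brighter probe sets gave 1 in UN-TU against UN-Veh, 2 in NN-TU against NN-Veh, 1 in TUDCA against vehicle and 5 in NN-Veh against NN-9w. Repeated quantile normalization and a common median each gave 1 in TUDCA against vehicle, array weights gave 1 in UN-17w against UN-9w, and the compared groups alone gave 1 in NN-Veh against NN-9w. Without NN-TU replicates 21 and 22, an alternative chosen after seeing the data as was that without UN-17w replicates 13 and 14, NN-TU against NN-Veh gave 0. Among single genes a call was lost in 56 and gained in 10 of the settings tried and kept its side in 730, with no called gene reversed in direction. The cause was not tested, except that fewer livers or more probe sets were tested by construction. Group means under 4.61 limit what can be said of 12 genes in every group and of others, Trem2, Lyz1 and Gpnmb among them, in some: 20 of 38 genes were above it in all groups.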
